A study of Mus musculus with 7 samples.

Results

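The genes described here are 10 transcription factors of mesenchymal cells, Twist1, Twist2, Prrx1, Snai1, Snai2, Zeb1, Zeb2, Tcf21, Tcf4 and Osr1. They were taken by name from a table of 12771 genes, and all 10 were present. The table holds counts of 3' end RNA-seq reads in cancer-associated fibroblasts (CAFs) from pancreatic tumors of C57BL/6 mice (C57BL/6 J in the study's methods). KPC cells are mouse pancreatic cancer cells, and they had been placed in the pancreas of male mice 2 to 3 weeks before collection. The KPC cells carried a non-targeting short hairpin RNA (shControl, 3 libraries) or one against Brca2 (shBrca2, 4 libraries), and the fibroblasts of both groups belonged to the host and carried no hairpin. CAFs were sorted as live CD45-/CD31-/EpCAM-/PDPN+ cells, with 1 library for each mouse. Levels are normalized counts (counts divided by a size factor for depth), listed for single libraries in the order of replicates 1, 2 and 4 of shControl and then 1 to 4 of shBrca2. Means are given ± SD over the 3 or 4 libraries.

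These factors act on DNA in a few related ways. TWIST1, TWIST2 and TCF21 are basic helix-loop-helix (bHLH) proteins that bind E-box motifs, usually as a pair with an E protein such as TCF4. SNAI1, SNAI2, ZEB1 and ZEB2 are zinc finger repressors that bind a subset of E-boxes and shut off epithelial genes such as the E-cadherin gene Cdh1, the switch best known from epithelial-mesenchymal transition. PRRX1 is a homeobox protein and OSR1 an odd-skipped zinc finger protein, and both mark embryonic mesenchyme and the fibroblasts that arise from it. In tumors, fibroblasts express many of these genes as part of their own identity.

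Sequencing depth and the make-up of the sorted cells were examined first. Total counts ran from 1898679 in shBrca2 replicate 3 to 5990579 in shBrca2 replicate 2, and the ranges of the groups overlapped. Brca2 had between 5 and 21 reads per library and was not called (log2 fold change -0.03 ± 0.47 standard error, adjusted p = 0.97 by DESeq2), but silencing took place in the cancer cells and is not checked by this value. All 13 fibroblast markers listed were measured, with Pdgfra at 623 ± 69.8 against 630 ± 28.2 and the sort marker Pdpn at 641 ± 36.6 against 539 ± 57.3. Their summed level was 142801 to 158867 in the controls and 106983 to 131180 in shBrca2, without overlap. By the rule given below, 5 of the 13 were called lower (Dpt, Pi16, Lum, Dcn and Mfap5), which is 38.5%, against 5.27% of all genes. Without shControl replicate 1 only 2 were, and leaving out shBrca2 replicate 1 or 4 left 3. Over all genes, the number called lower went from 673 to 366, 354 and 372 in these fits. The other 8 were not called. Pdgfra, Pdgfrb, Thy1, Fap, Col1a1 and Col1a2 had log2 fold changes between -0.09 and 0.05, Pdpn -0.25 and Col3a1 -0.44. The endothelial gene Pecam1 (CD31) had 1.95 to 17.7 normalized counts in the controls and 0 to 1.72 in shBrca2. Ptprc (CD45) and Epcam were not among the 12771 genes given. Markers of other cells were also detected, and the summed levels of 4 such lists did not overlap between the groups. Mesothelial markers (13 of 14 measured) summed to between 2282 and 6526 normalized counts in shControl and between 10162 and 11938 in shBrca2. Of the 13 mesothelial markers, 6 were called higher and 0 lower (46.2% and 0%, against 3.77% and 5.27% of all genes). Slpi, Krt8, Cdh3 and Krt18 were among them, and the median log2 fold change of the list was 0.97. Without Slpi, a secreted protease inhibitor gene, the sums of the other 12 overlapped (1374 to 4040 against 4006 to 4698). The other 7 markers were not called, among them Upk3b, Lrrn4 and Wt1 with log2 fold changes of -0.40, -0.09 and 0.15. Epithelial and cancer cell markers (7 of 12 measured) summed to 229 to 667 in shControl and 763 to 986 in shBrca2, and the groups did not overlap without Krt19 either. Of these 7, 4 were called higher and 0 lower (57.1% and 0%). Macrophage markers (9 of 12 measured) summed to 273 to 315 and 408 to 439, but the 8 besides Csf1r overlapped (166 to 199 against 131 to 203). Lymphoid and plasma cell markers (3 of 12 measured) ran the other way, at 26.6 to 91.4 in shControl and 0 to 12.8 in shBrca2. The pericyte list (969 to 1958 against 1943 to 2530) and the endothelial list (153 to 285 against 220 to 294) overlapped. The part of these cells in the results below was not tested.

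DESeq2 was fitted to all genes to ask which factors differed between CAFs of the shBrca2 and the shControl tumors. Calls required an adjusted p under 0.1, a log2 fold change beyond 0.5 in either direction and a mean normalized count over 5. Of the 10 factors, 1 was called lower in shBrca2 CAFs, Tcf21, and 0 were called higher. That is 10% of the factors, where 9.04% of the 12768 genes tested were called (3.77% higher and 5.27% lower), so the share was near that of all genes. At an unadjusted p under 0.05, 1 was likewise lower and 0 higher, and so was the number called by the edgeR quasi-likelihood test, which called 8.76% of all genes (5.13% as lower). No share of all genes is given for the unadjusted p. The median log2 fold change of the 10 factors was -0.06, and that of all genes tested was 0.01. The smallest adjusted p among the other 9 factors was 0.46, and their groups overlapped in every case. Over all genes the groups did not overlap in 17.1%, with 9.29% lower and 7.78% higher in shBrca2. In bulk RNA, a lower value can come from fewer cells of a type or from less RNA per cell, and these cannot be told apart.

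**Figure D1:**
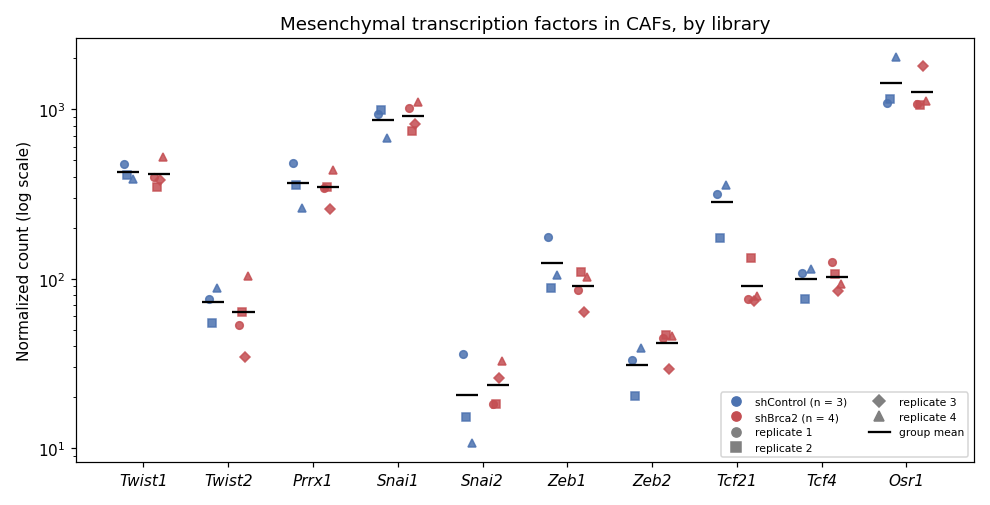
Normalized counts of the 10 factors in each library on a log scale, with shControl in blue, shBrca2 in red, the replicate number as the marker shape and the group mean as a black line. The 3 shControl values of Tcf21 (175 to 358) lie above its 4 shBrca2 values (74.3 to 133), while the groups overlap for the other 9 factors.

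Tcf21, a bHLH factor of the mesenchyme around developing heart, lung and kidney, fell 3.1-fold. It lies on chromosome 10, 22817263 to 22820143, minus strand (GRCm38.p6). It stood at 316, 175 and 358 in the controls against 75.7, 133, 74.3 and 79.3 in the shBrca2 libraries. Every shControl library was above every shBrca2 library, and the libraries nearest to each other were replicate 2 of each group. Its mean was 283 ± 96.1 in shControl (n = 3) and 90.5 ± 28.3 in shBrca2 (n = 4), and the fitted log2 fold change -1.63 (standard error 0.30, 95% interval -2.22 to -1.04, adjusted p = 7e-06 by DESeq2). The call did not rest on 1 mouse: with each library left out in turn the log2 fold change ran from -1.89 to -1.43 and the adjusted p from 7.6e-10 to 0.00037. Raw counts were between 43 and 370. In the GENCODE vM39 annotation 505 of the 2726 exon bases of Tcf21 also lie in Gm10824, a long non-coding RNA on the opposite strand, and the strand setting used for counting was not given in the sources used here. The summed fibroblast markers were also lower, and the summed mesothelial markers higher, in all shBrca2 libraries than in any control, the latter only with Slpi included. Of the 13 fibroblast markers, 5 were called lower, with log2 fold changes of -1.73 (Dpt), -1.35 (Pi16), -1.18 (Lum), -0.77 (Dcn) and -0.74 (Mfap5). The other 8 were not called, Pdgfra, Pdgfrb, Thy1 and Col1a1 among them. The part of the make-up of the sorted cells in the Tcf21 result was not tested.

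The promoter of the called factor is shown as the 250 bases before its start (RefSeq, GRCm38.p6, chr10:22820144-22820393, minus strand, written 5′ to 3′). It holds no E-box, the motif CANNTG searched on both strands, so no letters are in capitals:
Tcf21: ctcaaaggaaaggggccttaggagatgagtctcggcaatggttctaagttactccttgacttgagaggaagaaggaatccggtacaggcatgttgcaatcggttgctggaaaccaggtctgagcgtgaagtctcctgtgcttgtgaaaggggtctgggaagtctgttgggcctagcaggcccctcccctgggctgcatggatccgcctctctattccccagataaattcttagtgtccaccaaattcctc

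Genes that followed the same course as Tcf21 over the 7 libraries were then sought among 9061 genes with a mean normalized count of 20 or more. Likeness was the root mean square difference of log2 values, each taken about its own mean. The closest were Plpp3, a lipid phosphate phosphatase, at 0.14 and Itih5, of the inter-alpha-trypsin inhibitor heavy chain family, at 0.16, where Tcf21 itself varied by 0.89. Plpp3 stood at 2576, 1042 and 2372 against 500, 921, 565 and 531. Both genes shared with Tcf21 a lower value in replicate 2 than in the other controls, and a higher value in shBrca2 replicate 2 than in the rest of that group. Both were called lower, with log2 fold changes of -1.67 for Plpp3 and -1.70 for Itih5. As these genes were chosen for their likeness to Tcf21, the shared course and the similar fold changes follow largely from that choice. The mean log2 value of the 9 factors without a call was 7.36 in both groups. Relative to the other 9 in the same library, the log2 value of Tcf21 was 0.69, 0.32 and 1.16 in the controls against -1.08, -0.26, -0.92 and -1.30 in shBrca2. This difference was computed after the values of Tcf21 were seen and was not tested.

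**Figure D2:**
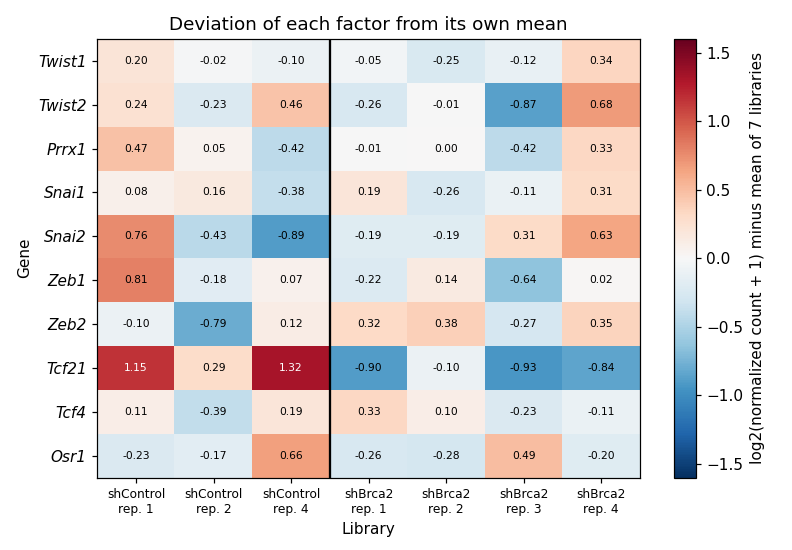
Deviation of each factor from its own mean over the 7 libraries, as log2(normalized count + 1), with red above and blue below the mean. Tcf21 is at 1.15, 0.29 and 1.32 in shControl and at -0.10 or lower in shBrca2, while no other factor divides at the line between the groups.

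TCF21 works with bHLH partners, and these were followed through a list of 14 genes for E proteins, Id proteins and other bHLH factors, of which 11 were tested. Tcf4, the E protein gene among the 10 factors, stood at 108, 75.9 and 114 against 126, 107, 84.6 and 92.5. Those groups overlapped, with an estimated log2 fold change of 0.05 (95% interval -0.41 to 0.52, adjusted p = 0.94 by DESeq2). Tcf3 and Tcf12, the other E protein genes, were at 0.03 and 0.05 on that scale. Tcf4 here is the gene for the E protein also called E2-2. Of the 11 genes, 1 was called higher and 2 lower (9.09% and 18.2%, against 3.77% and 5.27% of all genes). Id2, which encodes an Id protein that binds E proteins and keeps them off DNA, stood at 491, 225 and 513 against 184, 201, 133 and 181. Its groups did not overlap, and it fell by 1.23 on the log2 scale (adjusted p = 0.00066 by DESeq2), a call kept in all 13 alternative fits. Hand2, a bHLH factor of heart, limb and gut mesenchyme, fell by 0.84 on the log2 scale (DESeq2 adjusted p = 0.033). Its call was lost without shControl replicate 1, shControl replicate 2 or shBrca2 replicate 1, where the estimate was -0.75, -0.71 and -0.73 (adjusted p = 0.16, 0.12 and 0.16). Bhlhe40 rose by 0.61 on that scale, with an adjusted p of 0.12 without shControl replicate 1.

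Twist1 and Twist2, closely related genes of early mesoderm, were not called and their groups overlapped. Twist1 (chromosome 12, 33957671 to 33959831, plus strand) stood at 477, 407 and 386 against 400, 349, 382 and 524. The highest and the lowest library were both shBrca2, and the estimated log2 fold change was -0.04 (95% interval -0.41 to 0.34, adjusted p = 0.95 by DESeq2). As a ratio to the control level, that interval runs from 0.753 to 1.26. Twist2 (chromosome 1, 91801461 to 91848034, plus strand) stood at 76, 54.4 and 88.5 against 53.4, 63.5, 34.5 and 104. The shBrca2 values spanned those of the controls, and the interval of its log2 fold change was wider, -0.86 to 0.49 around -0.18 (adjusted p = 0.87 by DESeq2). Twist2 had as few as 20 reads, and 1484 of its 5570 exon bases lie in Gm29100 on the opposite strand.

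Prrx1, the homeobox gene of limb and facial mesenchyme, stood at 483, 359 and 261 against 345, 349, 259 and 439. Each group spanned a wide range and they overlapped throughout. Prrx1 (chromosome 1, 163245119 to 163315145, minus strand) gave an estimate of -0.08 on the log2 scale (95% interval -0.56 to 0.41, adjusted p = 0.93 by DESeq2), and the sign changed when shControl replicate 1 or shBrca2 replicate 3 was left out (0.17 and 0.04). Its relative Prrx2 was called lower, at 659, 668 and 661 against 463, 530, 421 and 427. Prrx2 fell by 0.52 on the log2 scale, just past the threshold (adjusted p = 0.011 by DESeq2). It was lost in 5 of the 7 fits without 1 library, all but those without shControl replicate 2 and shBrca2 replicate 2. Without shBrca2 replicate 3 the DESeq2 adjusted p was 0.061, but the log2 fold change of -0.48 fell short of the threshold. In the rest of the lost fits the adjusted p was 0.11 to 0.15. Prrx2 was singled out after its values were seen.

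Osr1, an odd-skipped gene of intermediate mesoderm, stood at 1096, 1147 and 2031 against 1078, 1061, 1805 and 1118. Each group thus held 1 library with a high value, shControl replicate 4 and shBrca2 replicate 3, and the rest lay close together. The mesothelial markers Upk3b (42.7, 72.1 and 256 against 57.7, 68.8, 178 and 73.2) and Lrrn4 (70.9, 168 and 484 against 177, 200, 366 and 164) were highest in the same libraries. Not all markers of that list were: in shBrca2, Wt1 was highest in replicate 2 and Slpi in replicate 1. The part of mesothelial RNA in the Osr1 values was not tested. Osr1 (chromosome 12, 9574442 to 9581500) gave an estimate of -0.17 on the log2 scale (95% interval -0.70 to 0.36, adjusted p = 0.83 by DESeq2), and of 0.17 without shControl replicate 4. Its relative Osr2 fell, from 811, 569 and 547 to 108, 399, 161 and 130. The estimate for Osr2 was -1.68 on the log2 scale (standard error 0.38, adjusted p = 0.00062 by DESeq2), but the call was lost without shControl replicate 1 (adjusted p = 0.21) or shBrca2 replicate 3 (0.11). Whether Osr1 and Osr2 differ in their response was not tested.

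Snai1 and Snai2 encode the Snail and Slug repressors. Snai1 (chromosome 2, 167538195 to 167542814, plus strand) stood at 932, 989 and 679 against 1011, 741, 822 and 1098. The groups overlapped, and the estimate on the log2 scale was 0.08 (95% interval -0.32 to 0.48, adjusted p = 0.91 by DESeq2). Snai2 (chromosome 16, 14705852 to 14709395) rested on few reads, between 11 and 42 per library. It stood at 35.9, 15.2 and 10.7 against 18.1, 18.1, 25.9 and 32.5, so the controls held both the highest and the lowest library. Its estimate was 0.16 on the log2 scale (95% interval -0.75 to 1.07, adjusted p = 0.92 by DESeq2), an interval that reaches a 2.11-fold increase, and it reached 0.86 without shControl replicate 1.

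The promoters of 6 factors were searched for E-boxes in windows of 300 bases, from 250 before to 50 after the start (RefSeq, GRCm38.p6). Snai1 held 1, a CACCTG, which reads CAGGTG on the opposite strand and is the form that SNAI and ZEB proteins are known to bind. It begins 126 bases before the start, and is shown in capitals in the 250 bases at chr2:167537945-167538194, plus strand:
Snai1: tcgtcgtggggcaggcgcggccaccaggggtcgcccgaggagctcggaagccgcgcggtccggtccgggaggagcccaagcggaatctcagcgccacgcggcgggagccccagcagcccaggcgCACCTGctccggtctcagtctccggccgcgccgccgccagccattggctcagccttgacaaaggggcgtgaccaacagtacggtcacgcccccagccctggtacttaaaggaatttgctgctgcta
Twist1, Twist2, Prrx1, Zeb2 and Tcf21 held no CANNTG in these windows. Of 32817 promoter windows of the same length, 20.2% held CACCTG and 72.3% held CANNTG, which includes it. These matches describe letters and no measurement of binding was made here.

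**Figure D3:**
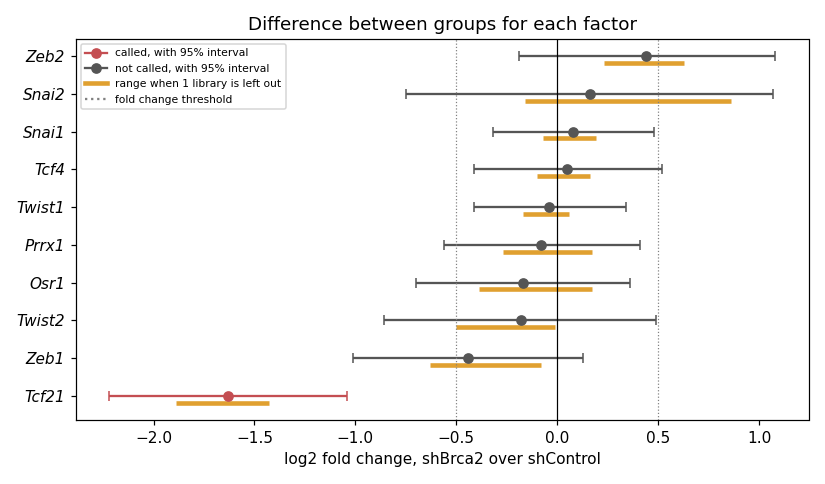
The log2 fold change of each factor, shBrca2 over shControl, with its 95% interval, and below it in orange the range of the fold change when 1 library at a time was left out. Dotted lines mark the fold change threshold of 0.5 in either direction. The interval of Tcf21 (-2.22 to -1.04) excludes 0, and the intervals of the other 9 factors include it.

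Zeb1 and Zeb2 had estimates of opposite sign. Zeb1 stood at 177, 88.6 and 105 against 86.1, 110, 63.9 and 102. shControl replicate 1 was above all other libraries, and replicates 2 and 4 lay within the shBrca2 range. The estimate for Zeb1 was -0.44 on the log2 scale (95% interval -1.01 to 0.13, adjusted p = 0.46 by DESeq2), and -0.08 without shControl replicate 1. Zeb2 (chromosome 2, 44983512 to 45117442, minus strand) stood at 33.3, 20.2 and 38.9 against 44.7, 46.6, 29.4 and 45.7. All shBrca2 libraries but replicate 3 were above the controls, and its estimate was 0.44 (95% interval -0.19 to 1.08, adjusted p = 0.54 by DESeq2). Neither gene was called in any alternative fit.

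The balance of related factors within a library was compared as the log2 ratio of their normalized counts plus 1, for 4 pairs. For Zeb2 to Zeb1 it was -2.37, -2.08 and -1.41 in the controls against -0.93, -1.22, -1.10 and -1.13 in shBrca2. All 4 shBrca2 libraries were above all 3 controls, which were also more spread. The means were -1.95 ± 0.49 and -1.10 ± 0.12, a difference of 0.86 toward Zeb2 (two-sided exact permutation test, p = 0.057). This is the smallest p that 35 ways of dividing 7 libraries can give, so the test cannot reach 0.05, and over the 4 ratios the Benjamini-Hochberg value was 0.23. The Twist1 to Twist2 ratio differed by 0.23 (exact permutation test, p = 0.51, adjusted 0.84) and the Snai2 to Snai1 ratio by 0.24 (exact permutation test, p = 0.63, adjusted 0.84). The ratio of Tcf4 to Tcf12, another E protein gene, differed by -0.01 (exact permutation test, p = 0.97, adjusted 0.97). Groups overlapped in these 3 ratios. Zeb2 is also expressed by macrophages, whose receptor gene Csf1r rose from 113 ± 32.7 to 248 ± 21.1 (adjusted p = 2.7e-05 by DESeq2). Of the 9 macrophage markers measured, 2 were called higher and 0 lower (22.2% and 0%, against 3.77% and 5.27% of all genes). By edgeR the numbers were 1 and 0, and 0 were lower also at an unadjusted p under 0.05, for which no share of all genes is given. The second gene called by DESeq2 was C1qa. It was lost with edgeR and in every fit without 1 library except that without shBrca2 replicate 3. The lysosomal gene Cd68 was at 98.6 ± 18.2 against 79.8 ± 15.2, and Mrc1, Aif1 and Cx3cr1 were between 0 and 8.61 in every library. The part of macrophage RNA in the ratio was not tested. Zeb2 shares 871 of its 22741 exon bases with Zeb2os on the opposite strand, and Zeb1 shares 198 of 13635 with Zeb1os1.

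**Figure D4:**
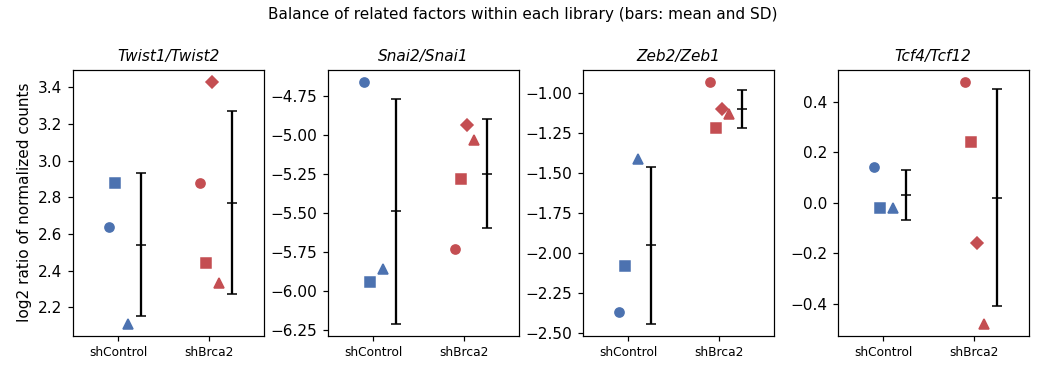
The log2 ratio of normalized counts plus 1 for 4 pairs of related factors in each library, with shControl in blue, shBrca2 in red, and bars for the mean and SD. The panels have separate vertical scales. The Zeb2 to Zeb1 ratio lies between -2.37 and -1.41 in shControl and between -1.22 and -0.93 in shBrca2, and the groups overlap in the other panels.

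The 9 factors without a call varied among mice, and in no library did all of them lie on the same side of their mean. Of all 10, the number above its own mean was 8 in shControl replicate 1 and 7 in shBrca2 replicate 4, and 2 in shBrca2 replicate 3, the library with the fewest reads. High and low libraries were thus found in both groups. The most alike pair was Twist1 and Snai1, which differed by a root mean square of 0.16 over the 7 libraries. Twist1 itself varied by only 0.19 and Snai1 by 0.24, and Snai1 ranked 172 among the genes compared with Twist1. Among the other genes of the table, the nearest ones lay between 0.05 and 0.22 from their factor, where the 9 factors themselves varied by 0.19 (Twist1) to 0.55 (Snai2). Zeb2 was nearest to Maml2, a coactivator of Notch signaling, at 0.05, and Snai1 to Polr3b at 0.07 and the endothelin receptor gene Ednra at 0.09. Osr1 was nearest to Afap1l2 at 0.08, Twist1 to Sgcb and Setd7 at 0.08, and Prrx1 to Acbd5 at 0.08. The least close were Dnal1, at 0.16 from Twist2, and Brinp3, at 0.22 from Snai2. These are the best of 9061 genes and describe these libraries.

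Other transcription factors of mesenchyme and fibroblasts were counted in a list of 60 genes, of which 55 were tested. Of these, 8 were called lower and 5 higher (14.5% and 9.09%, against 5.27% and 3.77% of all genes), and the list median was -0.06. The list was chosen with earlier results of these data known, so the difference from all genes cannot be read as a test. Decreases beside that of Osr2 included those of Ebf3 (log2 fold change -1.48), Nkx2-3 (-1.37) and Ebf1 (-1.02). Nkx2-3, a homeobox gene of gut and spleen mesenchyme, fell from 325 ± 82.4 to 126 ± 25.6 (adjusted p = 3.3e-06 by DESeq2). Ebf3, Nkx2-3 and Ebf1 were called with any 1 library left out. The largest increase was that of Gata4, a zinc finger factor of heart and gut mesoderm, from a low level of 3.99 ± 3.35 to 20.6 ± 3.3 (log2 fold change 2.45, DESeq2 adjusted p = 0.00091). Sox9 (1.04) and Runx2 (0.99), factors of cartilage and bone, and Gata6 (0.80) and Foxs1 (0.75) were the others. The number called higher was 2 without shControl replicate 1, shControl replicate 4, shBrca2 replicate 1 or shBrca2 replicate 4. Over all genes it went from 481 to 264, 386, 261 and 290 in these fits. Leaving out shControl replicate 1 gave 4 called lower, and leaving out shControl replicate 4 or shBrca2 replicate 3 gave 5. All genes called lower went from 673 to 366, 418 and 674 there. Tcf7l2, which is also known as TCF4 in the WNT field and is not the Tcf4 described above, was called lower by 0.62 on the log2 scale (DESeq2 adjusted p = 0.042). It was lost in 6 of the 7 fits without 1 library, and was named after its values were seen.

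Genes that act with or upstream of these factors were examined next. Of 24 genes for corepressors and turnover of SNAI and ZEB proteins, 22 were tested. Of the 22, 2 were called higher and 0 lower (9.09% and 0%, against 3.77% and 5.27% of all genes). By edgeR the numbers were 2 and 0, where it called 3.63% of all genes higher and 5.13% lower. They were 4 and 0 at an unadjusted p under 0.05, for which no share of all genes is given. Ezh2, a histone methyltransferase, rose by 0.92 on the log2 scale (adjusted p = 0.019 by DESeq2) and was lost without shControl replicate 4 or shBrca2 replicate 1. Rcor1, a scaffold of the LSD1 complex, stood at the threshold at 0.56 (DESeq2 adjusted p = 0.099), and was lost in 6 of the 7 fits without 1 library. The number called in this list was 0 without shControl replicate 4 or shBrca2 replicate 1, 1 without shControl replicate 1, shBrca2 replicate 2 or shBrca2 replicate 4, and at most 3. All genes called higher went from 481 to 386 and 261 in the former fits, and to 264, 374 and 290 in the latter. Of 23 genes tested for TGF-beta and WNT inputs, 3 were called higher and 2 lower (13% and 8.7%, against 3.77% and 5.27% of all genes). The receptor gene Tgfbr2 fell by 0.77 on the log2 scale (DESeq2 adjusted p = 0.0012), and was called in every fit without 1 library at -0.91 to -0.67. Tgfbr3 fell by 0.78, a call lost without shControl replicate 4 or shBrca2 replicate 4. Hmga2, a chromatin protein downstream of TGF-beta, rose from 3.6 ± 1.18 to 17.4 ± 3.47 normalized counts (DESeq2 adjusted p = 0.0029). The ligand gene Tgfb1 was called higher by 1.08 and Smad3 by 0.59. Without shControl replicate 1, shControl replicate 4 or shBrca2 replicate 4 both were lost, and also Tgfb1 without shBrca2 replicate 2 and Smad3 without shBrca2 replicate 1 or 3. In this list 1 gene was called higher without shControl replicate 1, shControl replicate 4 or shBrca2 replicate 4, and 1 lower without shControl replicate 4 or shBrca2 replicate 4. All genes called higher were 264, 386 and 290 in these fits, and all called lower 418 and 372, against 481 and 673 with all libraries.

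Genes that mesenchymal cells use for shape and matrix, and epithelial genes that they keep off, were counted last. Of 30 mesenchymal effector genes, all tested, 3 were called higher and 1 lower (10% and 3.33%, against 3.77% and 5.27% of all genes). The median of the 30 on the log2 scale was 0.02. Vim, the intermediate filament gene, stood at 16545 ± 739 against 14632 ± 1101 and was not called (adjusted p = 0.51 by DESeq2). Fbn1, a microfibril gene, fell by 1.03 on the log2 scale (DESeq2 adjusted p = 3.9e-09). Cdh2 and Cdh11, the cadherin genes of mesenchyme, rose by 1.28 and 1.62 and Acta2 by 1.07, though Cdh11 and Acta2 were lost without shControl replicate 4, and Acta2 also without shBrca2 replicate 4. Leaving out shControl replicate 2 gave 8 called higher and leaving out shControl replicate 4 gave 1, and the number called lower was 4 without shBrca2 replicate 2. Over all genes these fits called 610 and 386 higher (481 with all libraries), and 674 lower (673 with all libraries). Of 30 epithelial genes, 15 were tested and the other 15 were not among the 12771 genes given. The counts below thus cover only genes that were present, and 7 of these had a mean normalized count under 20. Of these 15, 9 were called higher and 0 lower (60% and 0%, against 3.77% and 5.27% of all genes). By edgeR the numbers were 8 and 0, where it called 3.63% of all genes higher and 5.13% lower. They were 10 and 0 at an unadjusted p under 0.05, for which no share of all genes is given. The median of the 15 on the log2 scale was 1.16. The keratin gene Krt8 rose from 135 ± 44.4 to 401 ± 53.3 (adjusted p = 1.7e-07 by DESeq2). Cdh3, the gene of P-cadherin, rose by 1.45 and Krt18 by 1.18 on the log2 scale. Cdh1 itself stood at 4.01 ± 2.83 against 11.5 ± 5.31 and was not called (adjusted p = 0.19 by DESeq2). The number called higher was 4 without shBrca2 replicate 1 and 5 without shControl replicate 1 or shBrca2 replicate 4. Over all genes it went from 481 to 261, 264 and 290 in these fits. Of the 15 genes, 8 are also on the mesothelial or the epithelial marker list, whose summed levels were higher in each shBrca2 library than in any control (for the mesothelial list only with Slpi included), and whether the reads came from fibroblasts or from such cells was not tested.

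**Figure D5:**
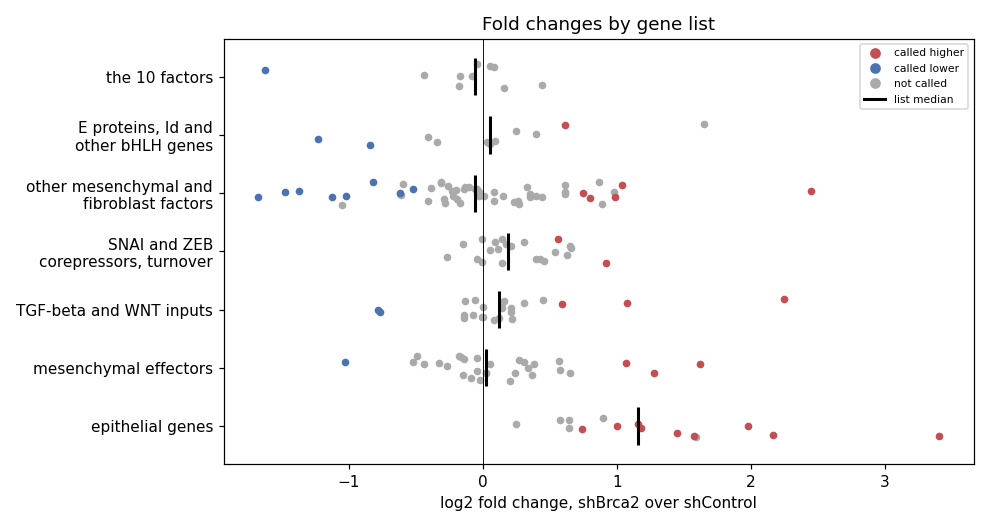
Each point is the log2 fold change of 1 gene, shBrca2 over shControl, in 7 gene lists, with genes called higher in red, called lower in blue and not called in gray. Black bars are list medians, which lie at -0.06 for the 10 factors, at -0.06 for other mesenchymal factors and at 1.16 for epithelial genes.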

How the data were processed

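RNA of sorted CAFs was measured in 7 libraries made with a variant of MARS-seq, which reads 3' ends. The authors deposited raw counts per gene symbol, 1 column for each library, and the submitters' processing notes name cutadapt, STAR 2.4.2a, HTSeq and mm10. Annotation, strand setting and treatment of molecular barcodes are not given in the sources used here, so counts may include PCR copies. Groups followed the labels (3 shControl, 4 shBrca2).

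As in the study's methods, group was tested by the likelihood ratio test of DESeq2 1.42.0 in R 4.3.3, over all 12771 genes. 3 genes received no adjusted p. Fold changes were not shrunken, 95% intervals are the estimate ± 1.96 standard errors, and normalized counts are counts divided by DESeq2 size factors. Ratios were compared by two-sided exact permutation tests (SciPy 1.17.1) with Benjamini-Hochberg adjustment over 4 ratios. Lists were described by counts and medians. Alternatives were a Wald test, edgeR 4.0.16 with TMM factors, TMM size factors, a filter of at least 10 counts in 3 libraries, no outlier or independent filtering, a replicate block, and leaving out each library. The fitting code was tested on simulated data, where it recovered most changed genes but its share of false calls was above the nominal rate of the threshold. Coordinates are RefSeq on GRCm38.p6, the assembly of mm10, and those of Zeb1 and Tcf4 are not reported here.

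The factors and lists were chosen with earlier results of these data known, so the shares called in a list are descriptions and no test against all genes. Named genes are the 10 factors, up to 6 called genes for each list and direction (1 of these is not reported here), the sort markers, Brca2 and the 2 genes most like a factor. Others are marked in the text or, like the E protein genes, Vim, Cdh1 and partners without a call, were chosen after their values were seen.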

Additional observations from a re-analysis of the deposited data

Results flagged for a closer look

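Among the 4 shBrca2 libraries, single values stood apart for 3 of the 14 quantities examined, by a gap to the nearest library larger, as a share of the group's range, than Dixon's 95% critical value. Chance alone gives about 1 in 20 such cases. Tcf21 was highest in shBrca2 replicate 2, at 133 normalized counts against 74.3 to 79.3 in the other libraries of the group, a gap of 0.914 of the range. Osr1 was highest in shBrca2 replicate 3, at 1805 against 1061 to 1118, a gap of 0.924. Among these libraries the mesothelial markers Upk3b (178) and Lrrn4 (366) were also highest there, though Wt1 and Slpi were not, and a link was not tested. Zeb2 was lowest in the same library, at 29.4 against 44.7 to 46.6, a gap of 0.891. shBrca2 replicate 3 was also the library with the fewest reads, and held 17 raw counts of Zeb2.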

How the results depend on the processing

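Tcf21 was called lower in all 13 alternatives, between -1.89 and -1.43 on the log2 scale and at an adjusted p of 7.6e-10 to 0.0063, and no other factor was called in any of them. Of 130 factor values under an alternative, 117 kept direction and call. The other 13 changed sign, all in factors that were not called and 12 of them in fits without 1 library. Over those fits the log2 fold change ran from -0.17 to 0.06 for Twist1, -0.27 to 0.17 for Prrx1, -0.07 to 0.19 for Snai1, -0.16 to 0.86 for Snai2, -0.10 to 0.16 for Tcf4 and -0.39 to 0.17 for Osr1.

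Same-numbered libraries did not deviate together (correlations of their deviations from group means -0.09, -0.13 and -0.14 for numbers 1, 2 and 4), so numbers were not taken to pair the mice. With the replicate block the estimate for Tcf21 was -1.55 (adjusted p = 0.0048 by DESeq2) and for Prrx1 0.07, and the Tcf4 to Tcf12 ratio difference was 0.05. The block lowered the number of genes of the other lists called from 30 to 16 higher and from 20 to 8 lower, with 37 of 205 genes receiving no adjusted p. Over all genes it went from 481 to 211 higher and from 673 to 280 lower. In that fit shBrca2 replicate 3 had no control of its number, so it added nothing to the group estimate. The part of this in the lower numbers was not tested. Without 1 library the list genes called ran from 17 to 36 higher and from 12 to 22 lower. Over all genes the numbers ran from 261 to 610 higher and from 354 to 695 lower. The Tcf4 to Tcf12 difference ran from -0.16 to 0.16 in those fits, and the Zeb2 to Zeb1 difference from 0.65 to 1.13. The remaining ratio differences kept their sign in every alternative. Raw counts of 11 to 42 for Snai2 and 16 to 80 for Zeb2 limit what could be seen for these genes.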
